A study of Rattus norvegicus with 18 samples.

Results

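The genes described here are 5 markers of leukocyte presence and recruitment in the rat heart, taken by identifier: Ptprc (ENSRNOG00000000655), Cd68 (ENSRNOG00000037563), Ccl2 (ENSRNOG00000007159), Icam1 (ENSRNOG00000020679) and Vcam1 (ENSRNOG00000014333). All 5 were found among the 37262 genes of the deposited values, of which 20360 carry Ensembl identifiers. The files give identifiers alone, and the names are those written beside them in the list that defined the set. Heart RNA was sequenced after rRNA depletion in 18 libraries. The groups were spontaneously hypertensive rats (SHR) given QDG, SHR given NS, and WKY rats, the normotensive strain usually set beside SHR, with 6 libraries each. They are called QDG, SHR and WKY below. The labels expand neither QDG nor NS, give no dose, duration, age or sex, and do not say whether WKY received NS, so strain and NS cannot be told apart in SHR against WKY. Nothing in them says whether libraries of a group are different animals, so a p-value here covers library-to-library spread, which may be technical.

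Leukocytes enter a tissue from the blood in steps. A chemokine displayed at the vessel wall draws them in, adhesion molecules on the endothelium bind their integrins and arrest them, and the cells then cross into the tissue. In the heart, resident macrophages are the most abundant leukocytes, and pressure overload is known to bring in monocytes. Ptprc encodes CD45, the tyrosine phosphatase carried by all nucleated blood-derived cells. Cd68 encodes a lysosomal glycoprotein abundant in macrophages. Ccl2 encodes the chemokine MCP-1, which recruits monocytes through the receptor CCR2. Icam1 and Vcam1 encode immunoglobulin-family adhesion molecules of activated endothelium that bind leukocyte integrins.

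Ccl2 was higher in SHR than in WKY hearts, with means of 3.11 ± 1.47 FPKM in SHR and 0.967 ± 0.482 FPKM in WKY (SD, n = 6 each). It was the only gene of the 5 that passed limma's test in SHR against WKY, where 24.8% of all genes tested passed, so 1 of 5 is near the background. In QDG against SHR, 0 of the 5 passed, where 0.293% of all genes did. Ptprc had nearly the same mean in every group, at 3.51 FPKM in QDG, 3.55 FPKM in SHR and 3.47 FPKM in WKY. Cd68 had higher means in QDG (3.81 FPKM) and SHR (3.96 FPKM) than in WKY (2.74 FPKM), as did Icam1 (3.31, 2.76 and 2.19 FPKM), without passing the test. Vcam1 had close means, at 1.39 FPKM in QDG, 1.40 FPKM in SHR and 1.30 FPKM in WKY.

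FPKM divide a gene's fragments by its length and by the depth of the library, which puts levels of different genes on a common scale. All 5 genes are of low abundance in this tissue. Their means over the 18 libraries were 3.51 FPKM for Ptprc, 3.51 FPKM for Cd68, 2.75 FPKM for Icam1, 2.36 FPKM for Ccl2 and 1.36 FPKM for Vcam1. Of the 17397 genes kept for testing (at least 1 FPKM in at least 6 libraries), 38.9% had a lower mean than Ptprc and 13.1% a lower mean than Vcam1. All 5 genes passed that filter. Ccl2 lay under 1 FPKM in 3 libraries, all WKY. Vcam1 lay under 1 FPKM in 4 libraries, of which 1 was QDG, 2 were SHR and 1 was WKY. The other 3 genes were above 1 FPKM in all 18. In this bulk tissue, fewer cells of a type and less RNA per cell cannot be told apart.

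The number of reads behind these values could be read from the values themselves. Low values step in whole multiples of what 1 read is worth. Ratios of nonzero low values between a library and WKY replicate 1 were kept where they lay near 1. Of those kept, 39.0% to 43.5% fell in a narrow band at a single ratio. That ratio gave a relative depth of 0.879 (WKY replicate 5) to 1.092 (SHR replicate 4). With it, the 18 values of each of the 5 genes were whole multiples of 1 step per gene. The largest distance from a whole number was 0.0139 read, in Ptprc, and at most 0.00374 read in the other 4 genes. If 1 step is 1 read, Ptprc rested on 1207 to 2198 reads per library, Icam1 on 337 to 1361, Vcam1 on 332 to 775, Cd68 on 185 to 661 and Ccl2 on 16 to 601. These numbers are the smallest that the steps allow. Counting error alone would then give a coefficient of variation (SD over mean) of 2.47% to 11.8% within a group. The observed coefficients were 8.64% to 96.1%, 3.41 to 14.1 times as large.

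RefSeq promoter windows (assembly GRCr8, 250 bases before to 50 after each gene's start) were held for 4 of the 5 genes. They are shown because the genes moved together between libraries, as described further on, and are printed as Icam1 with Vcam1 and Ptprc with Cd68. These pairs do not stand apart, since all 10 pairs correlated positively. The Pearson r of deviations from group means was 0.78 for Ptprc with Cd68, 0.74 with Vcam1 and 0.72 with Icam1. Whether promoter letters bear on the shared movement was not tested. Capitals mark matches, on either strand, to 3 motifs, which were chosen with the sequences in view. A core of NF-kB sites, GGNNNTTCC, is present in 18.3% of the 33469 promoter windows of the reference. The TATA box, searched as TATAAA, is present in 14.2% of them. A core of sites for ETS factors, searched as GGAAGT, is present in 22.6%.

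The Icam1 window is chr8:27829595-27829894 on the plus strand. The Vcam1 window is chr2:206742734-206743033 on the minus strand, printed 5′ to 3′ along the gene.
Icam1: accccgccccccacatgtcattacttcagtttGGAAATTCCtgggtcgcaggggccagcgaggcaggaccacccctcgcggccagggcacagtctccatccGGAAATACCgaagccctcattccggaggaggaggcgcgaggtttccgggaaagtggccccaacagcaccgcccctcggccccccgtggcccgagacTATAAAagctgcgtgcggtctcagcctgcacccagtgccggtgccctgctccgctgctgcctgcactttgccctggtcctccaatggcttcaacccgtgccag
Vcam1: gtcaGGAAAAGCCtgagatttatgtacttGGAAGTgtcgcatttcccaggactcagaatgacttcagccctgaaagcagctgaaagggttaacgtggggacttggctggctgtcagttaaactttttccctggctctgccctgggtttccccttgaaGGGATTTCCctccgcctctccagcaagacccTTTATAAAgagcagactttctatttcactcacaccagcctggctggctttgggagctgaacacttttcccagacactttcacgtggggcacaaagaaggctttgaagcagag

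The Ptprc window is chr13:52259697-52259996 and the Cd68 window is chr10:54882392-54882691, both on the minus strand and printed along the gene.
Ptprc: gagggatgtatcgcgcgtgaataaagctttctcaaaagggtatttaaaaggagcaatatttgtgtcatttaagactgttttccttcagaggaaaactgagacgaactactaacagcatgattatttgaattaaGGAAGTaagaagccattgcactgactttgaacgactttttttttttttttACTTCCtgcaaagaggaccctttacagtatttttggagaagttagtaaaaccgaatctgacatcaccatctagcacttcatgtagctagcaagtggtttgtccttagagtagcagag
Cd68: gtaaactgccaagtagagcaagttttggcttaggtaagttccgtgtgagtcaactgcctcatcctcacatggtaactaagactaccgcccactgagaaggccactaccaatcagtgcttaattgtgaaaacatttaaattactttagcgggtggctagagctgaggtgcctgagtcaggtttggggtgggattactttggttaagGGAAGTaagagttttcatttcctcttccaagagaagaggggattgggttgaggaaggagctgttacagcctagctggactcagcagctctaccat

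Both adhesion gene windows held matches to the NF-kB core and the TATA box, and neither leukocyte gene window did. In Icam1 the NF-kB core matches began at positions -218 and -149 from the start site, and the letters of the first fit the core on both strands. In Vcam1 they began at positions -246 and -93. The TATA box match began at position -53 in Icam1 and at position -60 in Vcam1, where a match on the other strand overlaps it. The ETS core was found in Ptprc, at positions -117 and -67, in Cd68 at position -45, and in Vcam1 at position -221, but not in Icam1. A match is a description of letters, and the absence of one says nothing of the factor.

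**Figure D1:**
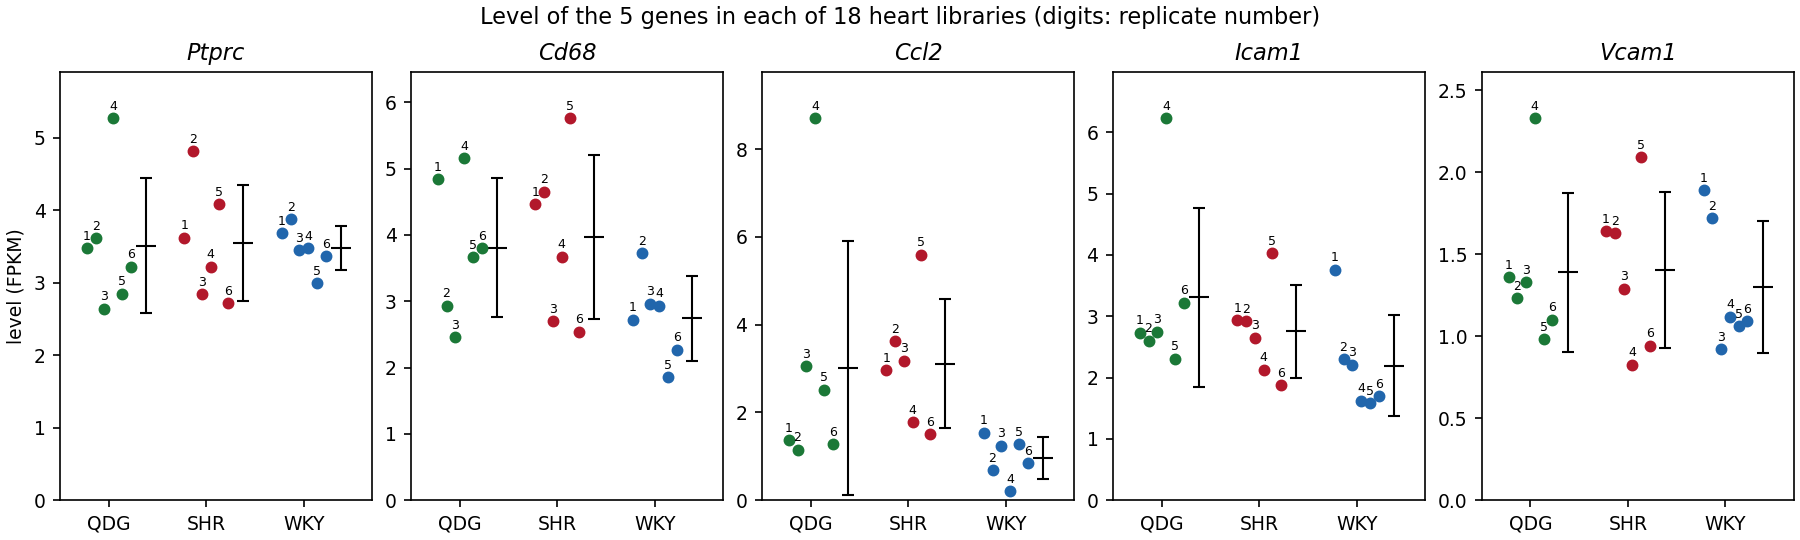
Level in FPKM (vertical axes, from 0, scaled per gene) of the 5 genes in QDG, SHR and WKY, with 1 point per library, its replicate number above it and bars at the mean ± SD (n = 6). All 6 SHR and all 6 QDG points for Ccl2 lie above the WKY median of 1.04 FPKM. QDG replicate 4 is the highest QDG library in all 5 panels.

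Ptprc, the marker of all leukocytes, ranged from 2.64 to 5.27 FPKM in QDG (median 3.35), from 2.72 to 4.81 FPKM in SHR (median 3.42) and from 2.99 to 3.88 FPKM in WKY (median 3.46). The groups overlapped throughout, and the QDG and SHR libraries were spread more widely than the WKY libraries. Their coefficients of variation were 26.7% in QDG, 22.5% in SHR and 8.64% in WKY, a difference in spread that was not tested. The fitted log2 difference, on the scale of log2(FPKM + 1), was 0.01 in SHR against WKY (95% confidence interval -0.24 to 0.26, limma adjusted p = 0.970). It was -0.02 in QDG against SHR (-0.27 to 0.23, limma adjusted p = 0.979) and -0.01 in QDG against WKY (-0.26 to 0.24, limma adjusted p = 0.973). Its sign changed in each of these comparisons when single libraries were left out.

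Cd68, the macrophage marker, ranged from 2.46 to 5.16 FPKM in QDG (median 3.73), from 2.54 to 5.76 FPKM in SHR (median 4.06) and from 1.85 to 3.72 FPKM in WKY (median 2.82). Of the 6 libraries, 3 in QDG and 3 in SHR lay above the highest WKY library, and 2 WKY libraries lay below the lowest of either. The mean was 1.45 times the WKY mean in SHR and 1.39 times in QDG. The fitted log2 difference was 0.39 in SHR against WKY (SE 0.17, 95% confidence interval 0.03 to 0.74), which did not pass the test across all genes (limma adjusted p = 0.104). It was 0.35 in QDG against WKY (SE 0.17, limma adjusted p = 0.160) and -0.04 in QDG against SHR (-0.39 to 0.32, limma adjusted p = 0.968). Without SHR replicate 6, the lowest SHR library, the SHR against WKY difference was 0.48 and passed (limma adjusted p = 0.0476). This was the 1 alternative of 27 that passed. Without SHR replicate 5, the highest SHR library, the difference was 0.29 (limma adjusted p = 0.221).

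Ccl2, the monocyte chemokine, was at 1.37, 1.15, 3.05, 8.71, 2.52 and 1.28 FPKM in QDG replicates 1 to 6. It was at 2.97, 3.62, 3.18, 1.78, 5.60 and 1.50 FPKM in SHR replicates 1 to 6. It was at 1.54, 0.688, 1.24, 0.211, 1.28 and 0.845 FPKM in WKY replicates 1 to 6. In SHR, 5 of 6 libraries lay above the highest WKY library, and SHR replicate 6 lay just under it at 1.50 FPKM. QDG libraries fell on both sides of the highest WKY library, with 3 above it and 3 between the WKY values. All 6 QDG libraries, like all 6 SHR libraries, lay above the WKY median of 1.04 FPKM. The lowest value of all, WKY replicate 4, rested on 16 reads, for which counting error alone gives a 95% Poisson interval of 0.121 to 0.343 FPKM. That interval lies below the one of the next lowest library, WKY replicate 2, which starts at 0.511 FPKM.

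The fitted log2 difference of Ccl2 was 1.03 in SHR against WKY (SE 0.33, 95% confidence interval 0.33 to 1.72, limma adjusted p = 0.0297). That scale understates changes of low genes. The ratio of mean FPKM was 3.22, and with pseudocounts of 0.1 and 0.01 the log2 difference was 1.64 and 1.77. The call lay near the threshold of 0.05, and leaving out 1 library could lose it. It was lost without any of SHR replicates 2, 3 and 5 or WKY replicates 2, 4 and 6, with limma adjusted p of 0.0524 to 0.0679, while the difference stayed between 0.88 and 1.16 over all libraries left out. Without SHR replicate 5 or WKY replicate 4 the difference was 0.88 and 0.90. Without SHR replicates 2 or 3 or WKY replicates 2 or 6 it was 0.98 to 1.02, with an SE of 0.35 or 0.36. Over all alternatives the adjusted p ran from 0.00369, without QDG replicate 4, to 0.0679. QDG replicate 4 is outside this comparison, and leaving it out kept the difference at 1.03, with an SE of 0.24. The 12 compared libraries alone gave a difference of 1.03 with an SE of 0.23 (limma adjusted p = 0.00626).

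Ccl2 did not pass in QDG against SHR, with a log2 difference of -0.19 (95% confidence interval -0.88 to 0.51, limma adjusted p = 0.894). That interval holds both falls and rises of appreciable size. Leaving out 1 library in turn, the difference ran from -0.49 without QDG replicate 4 to -0.04 without SHR replicate 5, and omitting QDG replicate 2, 6 or 1 gave -0.05, -0.07 and -0.08 (limma adjusted p of 0.557 to 0.983). QDG replicate 4 decides the QDG mean, which was 0.970 times the SHR mean with it and 0.603 times without it. In QDG against WKY the log2 difference was 0.84 (SE 0.33, limma adjusted p = 0.0833). Without QDG replicate 4 it was 0.54 (limma adjusted p = 0.145), and the ratio of means was 3.12 with that library and 1.94 without it.

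Icam1, an adhesion molecule that binds leukocyte integrins, ranged from 2.31 to 6.23 FPKM in QDG (median 2.74). It ranged from 1.87 to 4.03 FPKM in SHR (median 2.79) and from 1.58 to 3.76 FPKM in WKY (median 1.95). The highest library of each group, QDG replicate 4, SHR replicate 5 and WKY replicate 1, stood above the others of its group. All 6 QDG and 5 of 6 SHR libraries were above the WKY median. The fitted log2 difference was 0.41 in QDG against WKY (SE 0.19, 95% confidence interval 0.02 to 0.80, limma adjusted p = 0.132). Without WKY replicate 1 it was 0.53 and passed (limma adjusted p = 0.0362), the 1 alternative of 27 that did. Without QDG replicate 4 it was 0.25 (limma adjusted p = 0.288). It was 0.25 in SHR against WKY (-0.14 to 0.63, limma adjusted p = 0.369) and 0.17 in QDG against SHR (-0.22 to 0.55, limma adjusted p = 0.817). The QDG mean was 1.20 times the SHR mean, and 0.987 times without QDG replicate 4.

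Vcam1, the other adhesion molecule, ranged from 0.982 to 2.33 FPKM in QDG (median 1.28), from 0.827 to 2.09 FPKM in SHR (median 1.46) and from 0.920 to 1.89 FPKM in WKY (median 1.11). The groups overlapped almost fully. The fitted log2 difference was 0.06 in SHR against WKY (95% confidence interval -0.25 to 0.36, limma adjusted p = 0.818). It was -0.01 in QDG against SHR (-0.31 to 0.30, limma adjusted p = 0.993) and 0.05 in QDG against WKY (-0.25 to 0.35, limma adjusted p = 0.862). Each of these signs changed when single libraries were left out.

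**Figure D2:**
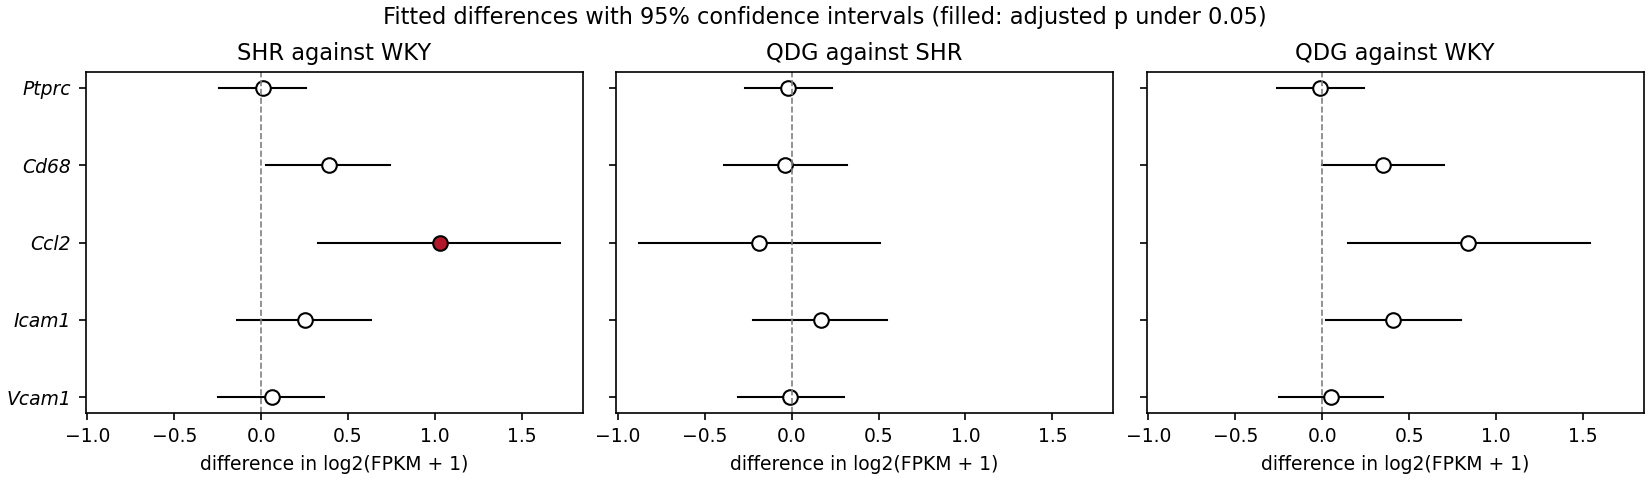
Fitted differences in log2(FPKM + 1) (horizontal axes) of the 5 genes in the 3 comparisons, with 95% confidence intervals as lines and a filled point where the limma adjusted p is under 0.05. The filled point is Ccl2 in SHR against WKY at 1.03, and its intervals are the widest of the 5 genes in every panel.

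Set against all genes tested, the count for the 5 was not high. In SHR against WKY, 1 of 5 passed, where 24.8% of the 17397 genes passed, and 2 of 5 had an unadjusted p under 0.05 (Ccl2 and Cd68), as had 6223 of the 17397. In QDG against SHR, 0 of 5 passed limma's test, where 0.293% of all genes passed, and 0 of 5 had an unadjusted p under 0.05, as had 1817 of the 17397. In QDG against WKY, 0 of 5 passed, where 20.9% of all genes passed, and 2 of 5 had an unadjusted p under 0.05 (Ccl2 and Icam1), as had 5536 of the 17397. Both counts of 2 are near these shares. The 6 values of each group overlapped for all 5 genes in every comparison, whereas they did not overlap for 12.5% of all genes in SHR against WKY, 1.15% in QDG against SHR and 10.4% in QDG against WKY. The median log2 difference of the 5 genes was 0.25 in SHR against WKY, -0.02 in QDG against SHR and 0.35 in QDG against WKY. Over all genes tested it was -0.009, 0.017 and 0.010 in the same order. SHR against WKY and QDG against WKY share the WKY libraries, and QDG against SHR and SHR against WKY share the SHR libraries. The 5 genes also moved together between libraries, as described further on. These medians are therefore not separate observations.

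The order of the 5 levels differed between groups. In QDG the means fell in the order Cd68 (3.81 FPKM), Ptprc (3.51), Icam1 (3.31), Ccl2 (3.01) and Vcam1 (1.39). In SHR the order was Cd68 (3.96 FPKM), Ptprc (3.55), Ccl2 (3.11), Icam1 (2.76) and Vcam1 (1.40). In WKY it was Ptprc (3.47 FPKM), Cd68 (2.74), Icam1 (2.19), Vcam1 (1.30) and Ccl2 (0.967). Ccl2 was thus last in WKY, but the values of all neighbours in these orders overlapped in every group. Icam1 was above Vcam1 in all 18 libraries.

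Ratios between genes within a library do not depend on how the library was scaled. The ratio of Ccl2 to Ptprc averaged 0.801 ± 0.534 in QDG, 0.862 ± 0.326 in SHR and 0.282 ± 0.146 in WKY (SD, n = 6 each). Its SHR values, 0.552 to 1.37, all lay above its WKY values, 0.0606 to 0.427, while the QDG values of 0.319 to 1.65 overlapped both. The ratio of Ccl2 to Vcam1 averaged 2.15 in SHR and 0.788 in WKY, also without overlap, and shares the Ccl2 values. Of the 10 ratios computed between the genes described here, only these 2 did not overlap in SHR against WKY. The ratio of Ccl2 to Icam1 overlapped narrowly, with a lowest SHR value of 0.804 and a highest WKY value of 0.808. The ratio of Ccl2 to Cd68 overlapped more widely, with 0.486 and 0.691 in the same order. Ratios between genes outside the set were not computed, so nothing particular to the Ccl2 ratios is read from the absence of overlap. The ratio of Cd68 to Ptprc averaged 1.10 ± 0.223 in QDG, 1.11 ± 0.192 in SHR and 0.782 ± 0.128 in WKY (SD, n = 6 each). It was under 1 in all 6 WKY libraries, where the highest was 0.960, and above 1 in 6 of the 12 QDG and SHR libraries. The ratio of Icam1 to Vcam1 averaged 2.36 ± 0.376 in QDG, 2.02 ± 0.293 in SHR and 1.70 ± 0.410 in WKY (SD, n = 6 each), with overlap between all groups. These ratios were not tested.

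**Figure D3:**
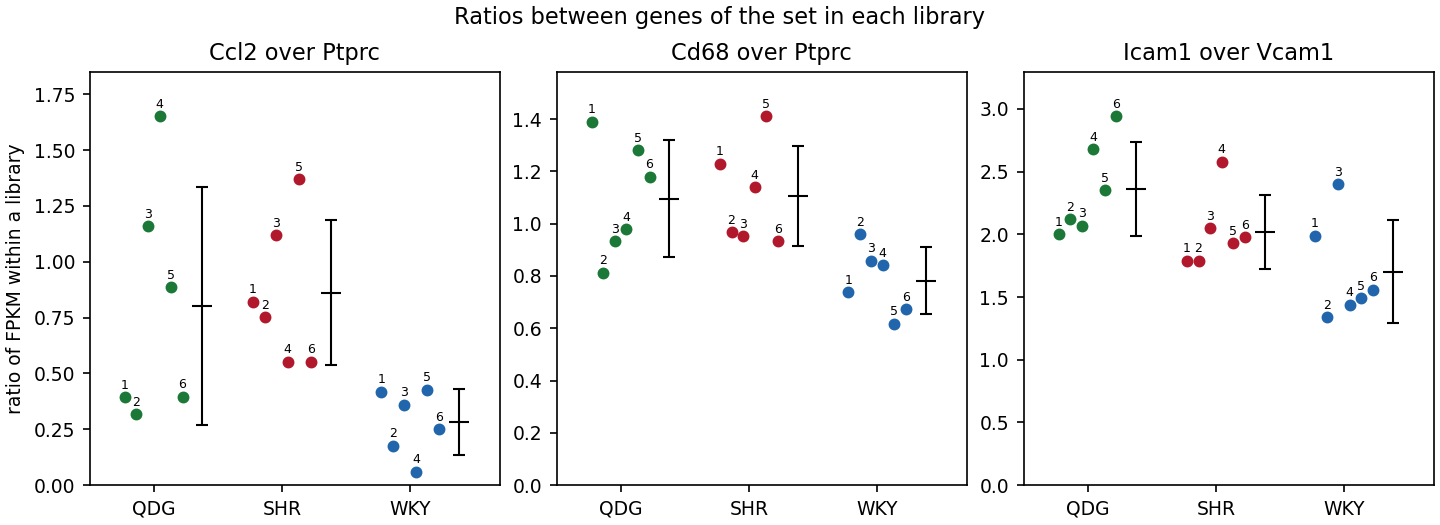
Ratio of FPKM between genes within each library (vertical axes, from 0) for Ccl2 over Ptprc, Cd68 over Ptprc and Icam1 over Vcam1, with 1 point per library, its replicate number and the mean ± SD (n = 6) beside each group. The lowest SHR ratio of Ccl2 to Ptprc, 0.552, lies above the highest WKY ratio, 0.427.

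Within groups, some libraries were high or low for several of the 5 genes. QDG replicate 4 was the highest QDG library for 5 of 5 genes, with deviations from the QDG mean of 0.39 to 1.50 on the log2(FPKM + 1) scale. SHR replicate 5 was the highest SHR library for 4 of 5, Ptprc being highest in SHR replicate 2. SHR replicate 6 was the lowest SHR library for 4 of 5. In WKY, replicate 1 was highest for Ccl2, Icam1 and Vcam1, and replicate 2 for Ptprc and Cd68. WKY replicate 5 was lowest for Ptprc, Cd68 and Icam1.

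Some of these libraries also stood at an end of a library measure, and others did not. QDG replicate 4 had the fewest genes at 0 of all libraries (6245), a relative depth of 0.8997 and the highest median log2(FPKM + 1) over the genes kept, 2.713 against 2.554 to 2.652 in the other QDG libraries. WKY replicate 1 likewise had the highest such median in WKY (2.676, with 2.569 to 2.665 in the others). WKY replicate 5 had the most genes at 0 (6972) and the lowest relative depth, but a median of 2.625. A low relative depth was thus found in QDG replicate 4, high for these genes, and in WKY replicate 5, low for several of them. SHR replicate 5 had a median of 2.635, second to SHR replicate 1 (2.664) and above the 2.551 to 2.605 of the other SHR libraries. SHR replicate 6, the lowest SHR library for 4 of 5 genes, had a relative depth of 0.9984. Its median was 2.572, above the 2.551 of SHR replicate 4. The part of these measures in the shared variation was not tested.

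**Figure D4:**
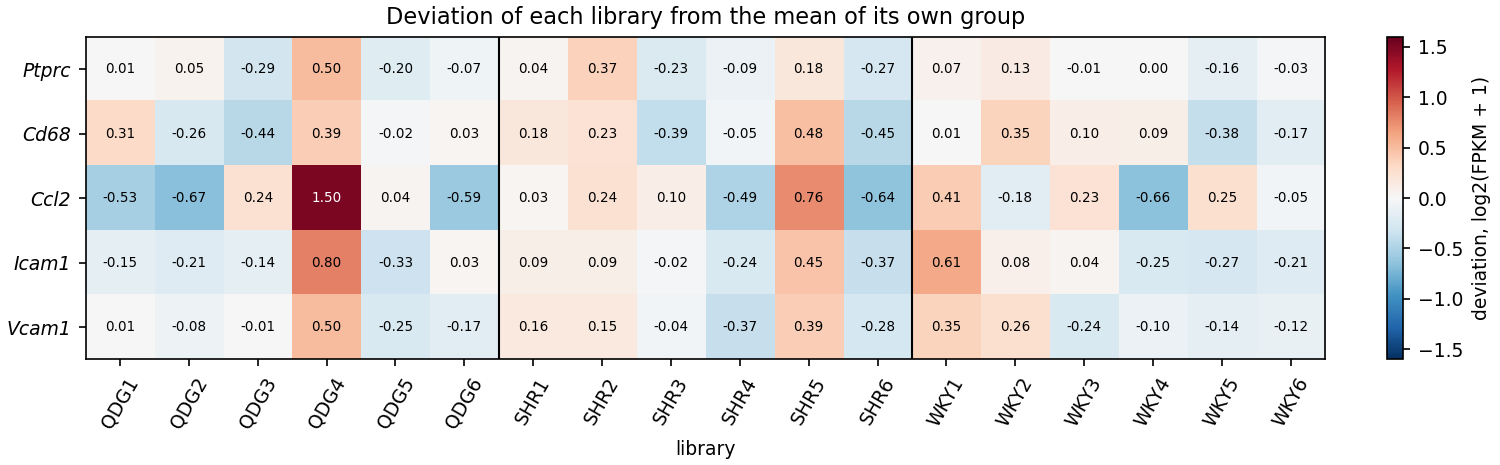
Deviation of each library from the mean of its own group, in log2(FPKM + 1), for the 5 genes (rows) and 18 libraries (columns, black lines between QDG, SHR and WKY), with red above and blue below the group mean. The QDG replicate 4 column is red throughout, from 0.39 for Cd68 to 1.50 for Ccl2.

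The deviations from group means correlated positively for all 10 pairs of genes over the 18 libraries, with Pearson r of 0.35 to 0.87, and 0.29 to 0.84 after every library was centred on its median. The libraries share their scaling and depth across genes, so these values are descriptions. The closest pair was Icam1 and Vcam1, the adhesion molecules, with r = 0.87 (Spearman rho 0.82). Within groups their r was 0.92 in QDG, 0.95 in SHR and 0.77 in WKY. The leukocyte pair Ptprc and Cd68 followed with r = 0.78 (rho 0.83), and 0.71 in QDG, 0.87 in SHR and 0.91 in WKY. Leaving out QDG replicate 4 left these pairs at 0.81 and 0.77.

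Ccl2 followed Icam1 (r = 0.77) and Vcam1 (r = 0.69) more than it followed Ptprc (r = 0.53) or Cd68 (r = 0.35). Differences between these values were not tested. Without QDG replicate 4 they were 0.58, 0.52, 0.14 and 0.15 in the same order. No difference between groups was tested. The r of Ccl2 with Ptprc was 0.59 in QDG, 0.67 in SHR and -0.2 in WKY, and the r of Ccl2 with Cd68 was 0.35 in QDG, 0.75 in SHR and -0.37 in WKY. These were the 2 negative values among the 10 pairs in WKY. In SHR alone, r between Ccl2 and Icam1 was 0.98 over the 6 libraries, and in WKY it was 0.54.

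**Figure D5:**
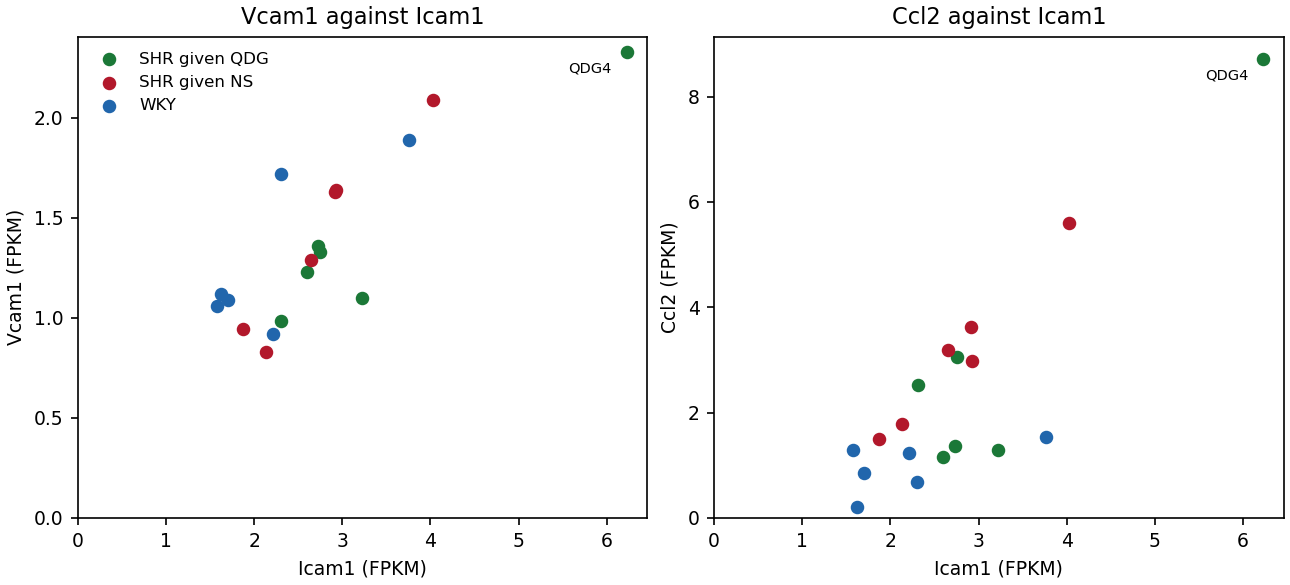
Levels in FPKM (axes from 0) of Vcam1 against Icam1 and of Ccl2 against Icam1, with 1 point per library coloured by group. Vcam1 rises with Icam1 in every group (r of deviations 0.87 over 18 libraries), and QDG replicate 4 is at the upper right of both panels, at 6.23 FPKM Icam1 and 8.71 FPKM Ccl2.

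Among the other 17396 genes tested, those whose log2(FPKM + 1) ran most like each gene over the 18 libraries were taken. They were ENSRNOG00000012172 for Icam1 (r = 0.93), ENSRNOG00000005825 for Cd68 (r = 0.89), ENSRNOG00000000239 for Ccl2 (r = 0.89), ENSRNOG00000020300 for Vcam1 (r = 0.89) and ENSRNOG00000017874 for Ptprc (r = 0.88). The files and the reference give these identifiers no name. Among the 5 themselves, Icam1 ranked 17 in likeness to Vcam1 out of the 17396, Icam1 ranked 38 for Ccl2, Vcam1 ranked 53 for Icam1 and 65 for Ptprc, and Ptprc ranked 559 for Cd68.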

How the data were processed

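Values were the authors' deposited table per library, taken as FPKM. The files do not name the unit, which was inferred from non-whole values, unequal library sums of 598626 to 676288 and steps in low values. A TPM table with genes removed was not told apart from FPKM. RNA was Trizol-extracted, depleted of rRNA and made into NEB libraries, per the labels' protocols. The submitters' processing notes name limma. For the aligner, counter, build, annotation and strandedness, the sources used here give nothing. Members and lists were chosen with earlier results of these data known.

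The filter for testing was 1 FPKM or more in 6 or more of 18 libraries (17397 genes). Their log2(FPKM + 1) values were fitted in limma (version 3.58.1, R version 4.3.3, statmod version 1.5.0) using eBayes with trend and robust options, 1 mean per group over all 18 libraries, two-sided, Benjamini-Hochberg adjusted over all genes kept, threshold 0.05. The script was checked on simulated data. Read steps used genes with a mean under 0.3 FPKM and a tolerance of 0.1 read, in Python 3.11.15. Promoter windows are from RefSeq.

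Named genes are the 5 members and, for each, the gene of highest Pearson r. The reference table held 47357 genes and 0 Ensembl identifiers. The 11 lists of 124 related symbols (other chemokines, receptors, integrins, NF-kB pathway, markers of heart cell types) were therefore not analysed here, and the tissue label could not be checked against its markers. Alternatives were median centring, quantile normalization, no trend, sample weights, other filters and pseudocounts, 12 libraries alone, a replicate block and each library left out. The correlations without QDG replicate 4 and after centring were added after seeing the data.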

Additional observations from a re-analysis of the deposited data

Results flagged for a closer look

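In 5 of 15 sets of 6 values (5 genes in 3 groups), the highest library lay far from the next by Dixon's criterion (the gap as a share of the range, at its 95% critical value), where chance gives about 1 in 20 sets. Of these, 4 are the same library, so they are not separate events.

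QDG replicate 4 held Ccl2 at 8.71 FPKM, where the other QDG libraries were at 1.15 to 3.05. Icam1 was at 6.23 FPKM there, with 2.31 to 3.22 in the others. Vcam1 was at 2.33 FPKM, with 0.982 to 1.36 in the others. Ptprc was at 5.27 FPKM, with 2.64 to 3.61 in the others. Cd68 was also highest there, at 5.16 FPKM, close to QDG replicate 1 at 4.84. In WKY replicate 1, Icam1 was at 3.76 FPKM, with 1.58 to 2.30 in the other WKY libraries. What set these libraries apart was not tested.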

How the results depend on the processing

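The 5 genes had 405 fold changes under alternative settings. Of these, 373 kept their direction and side of the threshold, 6 lost the call, 2 gained it and 24 changed sign, none of them among called values. These changes all came from leaving out 1 library, and the cause was not tested.

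Leaving out 1 library in turn, the log2 difference in SHR against WKY ran from 0.88 to 1.16 for Ccl2, 0.29 to 0.48 for Cd68, -0.07 to 0.06 for Ptprc and -0.02 to 0.13 for Vcam1. In QDG against SHR it ran from -0.12 to 0.06 for Ptprc, -0.13 to 0.06 for Cd68 and -0.11 to 0.07 for Vcam1. In QDG against WKY it ran from 0.25 to 0.53 for Icam1, -0.11 to 0.05 for Ptprc and -0.05 to 0.12 for Vcam1.

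Over all genes, 51 were called in QDG against SHR. The count was 77 when libraries were median-centred, 79 after quantile normalization, 104 under sample weights and 30 if no filter was applied. Leaving out 1 library gave 28 to 69, with 28 without SHR replicate 6 and 30 to 33 without SHR replicate 4 or QDG replicates 2, 3 or 6. The counts in the other comparisons stayed within 1.5 times the 4306 and 3642 called. A filter at 5 FPKM kept none of the 5 genes, so it gives no value for them.

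Same-numbered libraries of different groups correlated at -0.06 to 0.19 in their deviations from group means. The best match in another group had the same number for 5 of 18 libraries. No expected count was worked out, so whether replicate numbers pair the libraries was not tested. With a replicate block, Ccl2 in SHR against WKY had a log2 difference of 1.03 (limma adjusted p = 0.0473), no call among the 5 genes changed, and 4760, 40 and 4028 genes were called in SHR against WKY, QDG against SHR and QDG against WKY.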

Other observations

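The step of 1 read in each gene also gives the relative length by which its reads were scaled. Taking Ccl2 as 1.00, the lengths were 1.49 for Cd68, 3.17 for Icam1, 4.80 for Vcam1 and 6.05 for Ptprc. The same step held in all 18 libraries, so each gene was scaled by 1 length throughout.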
